A study of Mus musculus with 9 samples.

Results

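The genes of glycinergic inhibition were followed through whole-brain RNA-seq of diabetic mice: the glycine receptor subunits Glra1, Glra2, Glra3 and Glrb, the glycine transporters Slc6a5 and Slc6a9, and the scaffold gene Gphn. They were found by gene symbol in the count and FPKM tables and make up 7 of the 53465 genes listed, and all 7 had enough counts to be tested. Hoxb5, a transcription factor gene that is expressed in the caudal hindbrain and spinal cord of the adult, was read beside them as a marker of that tissue in each library. The libraries came from male C57BL/6 mice that were 7 weeks old at the start, with 3 mice in each group and 1 library per mouse. CON mice ate standard chow and received saline. DNP mice, the model of diabetic neuropathic pain, ate 60% fat chow over 4 weeks, were injected daily for 7 days with 50 mg/kg streptozotocin, which destroys the insulin-producing cells of the pancreas, and later received saline. BAC mice had the same diet and streptozotocin and were then injected daily for 7 days with 8 mg/kg baclofen, which activates GABA-B receptors. Mice entered the diabetic groups only if they showed high blood glucose and pain hypersensitivity, so these groups were selected on outcome, and no group received baclofen without diabetes.

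Glycine is, with GABA, a fast inhibitory transmitter, and it prevails over GABA in the spinal cord and brainstem. It opens pentameric chloride channels made of alpha subunits, which bind the transmitter, and the beta subunit, which ties the channel to gephyrin, the protein that Gphn encodes. Gephyrin forms the scaffold under glycine receptors and many GABA-A receptors. Glycinergic neurons retrieve glycine through GlyT2, the product of Slc6a5, while GlyT1, the product of Slc6a9, clears it mainly into glial cells. In the spinal dorsal horn, glycinergic neurons restrain the relay of pain signals.

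The 9 libraries held 13107382 to 16008129 counts each and did not hold the same brain regions. Hoxb5 had 0, 2 and 0 counts in CON 1, CON 2 and CON 3, 232, 0 and 0 counts in DNP 1, DNP 2 and DNP 3, and 747, 0 and 1000 counts in BAC 1, BAC 2 and BAC 3. Hoxb5 was thus above 3 counts, the limit that a count of 0 allows (counting error only), in 0 of 3 CON, 1 of 3 DNP and 2 of 3 BAC libraries, and these 3 are called Hoxb5 libraries below. Of 16 Hox genes of the same regions, 15 or 16 had more than 3 counts in each of DNP 1, BAC 1 and BAC 3, and none did in any of the other 6 libraries, in which 0 to 3 of the 16 had any count, with 3 in CON 2. Cerebellar tissue varied as well, since Gabra6, a receptor gene of cerebellar granule cells, had 0 counts in DNP 2, DNP 3 and BAC 2 and 4828 counts in CON 2. The 6 forebrain markers were detected in every library, with a summed level of 17.2 to 71.8 CPM (counts scaled to library size with TMM factors) in DNP 1, BAC 1 and BAC 3 and of 70.1 to 468 CPM in the others. All libraries carry the label whole brain. Because Hoxb5 splits the libraries into 3 with and 6 without it, no correlation with Hoxb5 is given as a test, and levels are set side by side.

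Glra1 encodes alpha1, the alpha subunit of the adult receptor in the brainstem and spinal cord, and it was nearly absent from 6 of the 9 libraries. Its counts were 8, 8 and 1 in CON, 406, 2 and 0 in DNP, and 488, 4 and 516 in BAC, in the order of the replicates. As levels these were 0.531, 0.570 and 0.0702 CPM in CON, 29.4, 0.137 and 0 CPM in DNP, and 35.4, 0.276 and 32.5 CPM in BAC. The 3 high libraries are the 3 with Hoxb5, and within DNP and BAC the libraries differed far more than the groups did. The lowest of these 3 stood 51.6 times above the highest of the other 6. In a bulk sample, fewer cells of a type and less RNA per cell cannot be told apart. CON averaged 0.390 ± 0.278 CPM, DNP 9.85 ± 16.9 CPM and BAC 22.7 ± 19.5 CPM (SD, n = 3), and CON overlapped with both other groups.

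Glra2 encodes alpha2, the alpha subunit that prevails before birth and persists at low level in the forebrain, and it did not separate the libraries by Hoxb5. Its levels were 14.9, 2.99 and 9.13 CPM in CON, 15.4, 10.6 and 11.8 CPM in DNP, and 10.6, 14.6 and 19.1 CPM in BAC. All but CON 2 lay between 9.13 and 19.1 CPM, and CON 2, the library with the most counts of Gabra6, was the lowest. Glra3, whose alpha3 subunit is found in the superficial dorsal horn and in several brain regions, was likewise lowest in CON 2. It measured 17.8, 3.49 and 11.4 CPM in CON, 22.7, 7.30 and 9.72 CPM in DNP, and 23.7, 10.4 and 33.5 CPM in BAC. The 3 Hoxb5 libraries were above the other 6 for Glra3, by 1.27 times between the nearest libraries, whereas they overlapped for Glra2. Glra4, the remaining alpha subunit gene, had 0 to 15 counts per library and was too low to be tested.

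**Figure D1:**
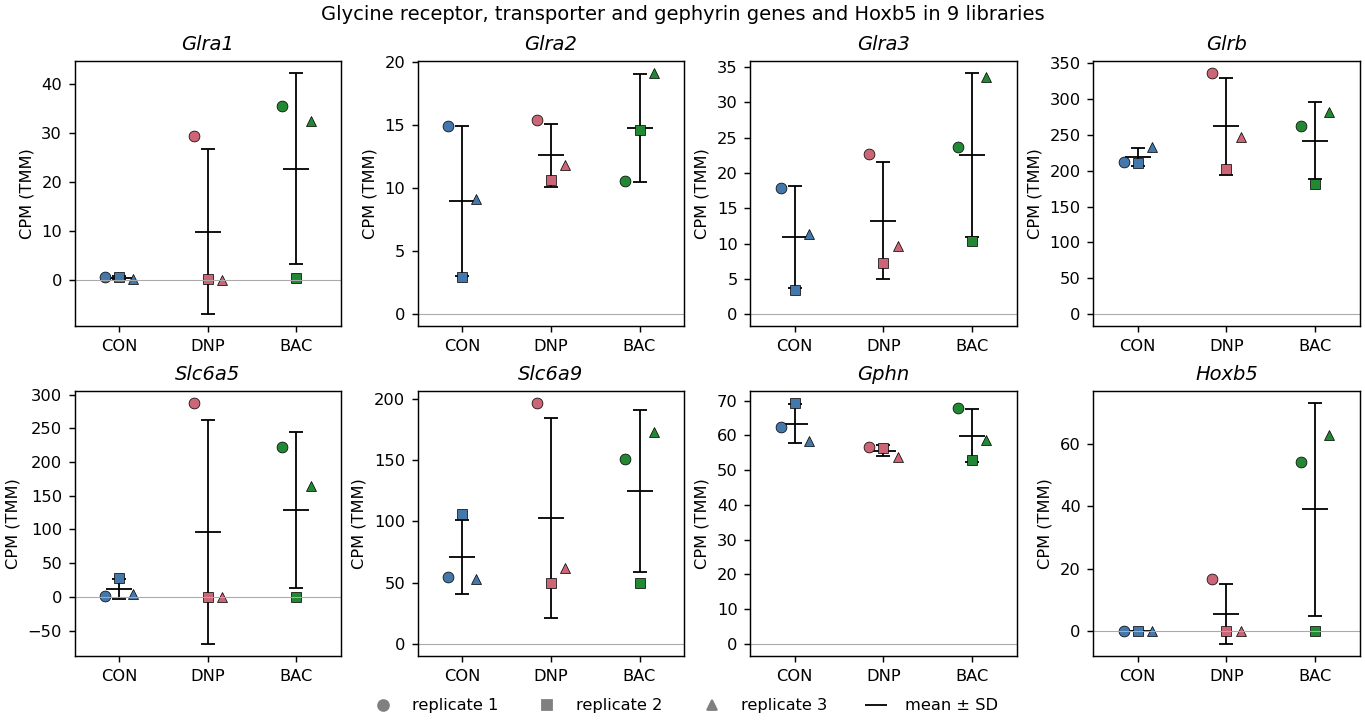
Levels of the 7 genes and of Hoxb5 in each library, in TMM-normalized CPM, by group, with the replicate number as the symbol and the group mean ± SD as bars (n = 3 mice, bars may extend below 0). For Glra1, Slc6a5, Slc6a9 and Hoxb5 the high points are DNP 1, BAC 1 and BAC 3, while Gphn stays between 53.0 and 69.4 CPM.

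Per length of transcript, the make-up of the alpha subunit RNA changed from library to library. Glra1 made up 2.26%, 11.1% and 0.493% of the summed alpha FPKM (fragments scaled to transcript length and library total) in CON, 53.8%, 0.940% and 0% in DNP, and 63.7%, 1.37% and 49.5% in BAC. Glra2 held the largest share, 64.4% to 81.0%, in the 6 libraries without Hoxb5. In DNP 1, BAC 1 and BAC 3 its share was 31.2%, 21.0% and 32.2%, although its own FPKM of 3.54 to 6.24 overlapped with the 0.961 to 4.55 of the other libraries. The share of Glra2 was thus smaller in these 3 libraries, while its level overlapped with that of the others. The summed alpha level was 15.7 to 19.4 FPKM in these 3 libraries and 1.49 to 6.34 FPKM in the other 6.

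As 1 value per library, the log2 ratio of Glra1 to Glra2 (FPKM + 0.1 in both terms) averaged -3.61 ± 1.41 for CON, -3.05 ± 3.33 for DNP and -0.84 ± 3.38 for BAC (SD, n = 3). It was 0.56 higher in DNP than in CON, 2.21 higher in BAC than in DNP and 2.77 higher in BAC than in CON. By an exact two-sided permutation test over samples, with n = 3 per group, p was 1, 0.5 and 0.4 (adjusted over the 3 comparisons, 1, 0.75 and 0.75), where 0.1 is the smallest p that 3 against 3 can give. The ratio did not separate the groups, and its sign in DNP versus CON rested on DNP 1, without which the difference was -1.35.

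**Figure D2:**
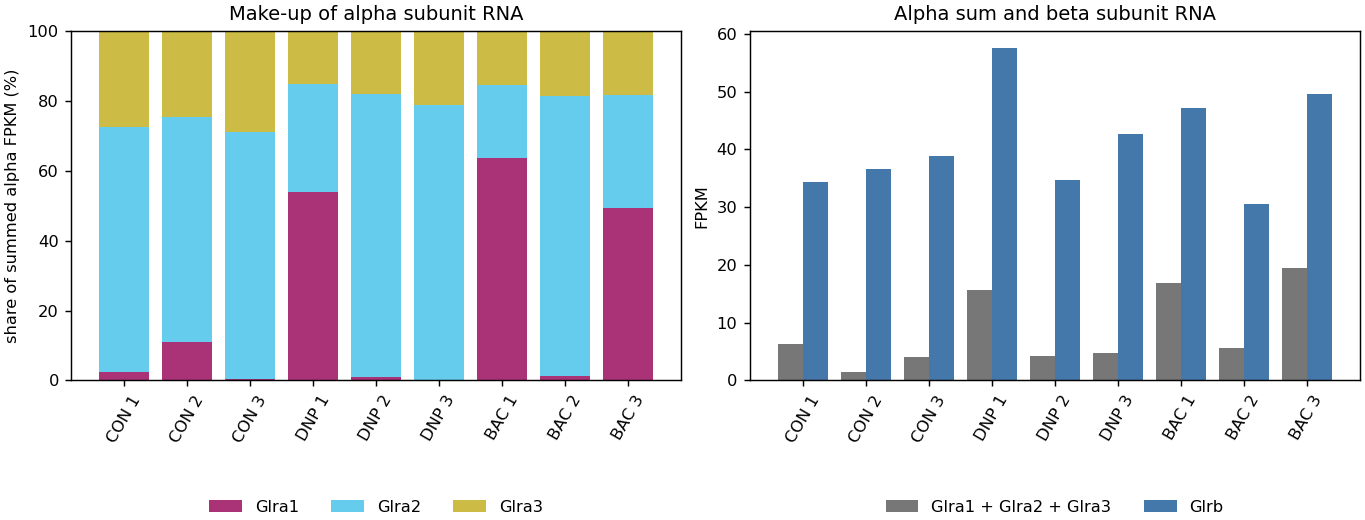
Left, share of Glra1, Glra2 and Glra3 in the summed alpha subunit FPKM of each library (%), and right, the summed alpha FPKM beside the FPKM of Glrb. Glra1 takes 49.5% to 63.7% in DNP 1, BAC 1 and BAC 3 and at most 11.1% elsewhere, and Glrb exceeds the alpha sum in all 9 libraries.

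Glrb encodes the beta subunit, which every synaptic glycine receptor needs for its link to gephyrin, and it was the most abundant of the 7 genes per length in all 9 libraries. Its levels were 213, 211 and 233 CPM in CON, 336, 203 and 246 CPM in DNP, and 262, 182 and 282 CPM in BAC. CON averaged 219 ± 12.4 CPM, DNP 262 ± 67.7 CPM and BAC 242 ± 53.0 CPM (SD, n = 3), and the groups overlapped. Its FPKM was 5.37 to 24.5 times the summed alpha FPKM in the 6 libraries without Hoxb5 and 2.56 to 3.67 times in the 3 with it. The excess over alpha subunits was widest in CON 2, in which Glra2 and Glra3 were lowest. The sequence upstream of Glrb is shown because this gene was read at a high level in every library, also where Glra1 was nearly absent. The 250 bases before its RefSeq start lie at chr3:80913661-80913910 of GRCm38.p6, minus strand, printed 5′ to 3′:
Glrb: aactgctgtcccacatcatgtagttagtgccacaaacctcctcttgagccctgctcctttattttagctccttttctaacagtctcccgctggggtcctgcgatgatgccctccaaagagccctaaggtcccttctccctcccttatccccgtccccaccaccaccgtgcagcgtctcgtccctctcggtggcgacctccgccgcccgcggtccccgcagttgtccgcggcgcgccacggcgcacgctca
With the 50 bases that follow the start, this window holds 30 CpG dinucleotides and 65.7% G and C, against medians of 7 CpG and 52.7% over 32851 promoter windows of the same 300 bases, and 88.3% of these windows hold fewer CpG.

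Slc6a5 encodes GlyT2, the transporter that marks glycinergic neurons, and it spanned the widest range of the 7 genes. Its counts were 13, 397 and 65 in CON, 3974, 4 and 2 in DNP, and 3064, 2 and 2609 in BAC. The corresponding levels were 0.862, 28.3 and 4.57 CPM in CON, 288, 0.273 and 0.131 CPM in DNP, and 223, 0.138 and 164 CPM in BAC. The 3 Hoxb5 libraries were again the highest, by 5.81 times between the nearest libraries, and Slc6a5 ranked next to Glrb in FPKM only in these 3. Among these 3 it ran against Hoxb5, which was 16.8 CPM in DNP 1, 54.3 CPM in BAC 1 and 63.0 CPM in BAC 3. Of the 3, DNP 1 was also the highest for Slc6a9 and Glrb, but the lowest for Glra1, Glra3 and Gphn, with Glra2 in between. CON averaged 11.2 ± 14.9 CPM, DNP 96.1 ± 166 CPM and BAC 129 ± 115 CPM (SD, n = 3), with overlap between all groups.

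Among the 3 CON libraries, which hold no more than 2 counts of Hoxb5, Slc6a5 had the same order as markers of cerebellar granule cells. Cbln3, a gene of cerebellar granule cells, had 139, 20658 and 2641 counts in CON 1, CON 2 and CON 3, in the same order as Slc6a5. In DNP 2, DNP 3 and BAC 2 both genes were near 0, Cbln3 with 3, 8 and 7 counts and Slc6a5 with 4, 2 and 2, and no order can be read from such counts. Among genes listed for cerebellar Golgi and Purkinje cells, Pcp2, Calb1 and Car8 had this order as well. In CON 1, CON 2 and CON 3, Pcp2 measured 3.85, 185 and 47.9 CPM, Calb1 145, 770 and 258 CPM, and Car8 21.8, 1034 and 204 CPM. The remaining genes of that list, Grm2 and Sorcs3, did not have it. Grm2 measured 73.4, 39.5 and 74.1 CPM and Sorcs3 65.1, 34.7 and 62.6 CPM, lowest where Slc6a5 was highest of the 6. The 7 granule cell markers summed to 79.5, 4633 and 662 CPM in CON 1, CON 2 and CON 3 and, in a range that includes CON 1, to 56.0 to 91.8 CPM in DNP 2, DNP 3 and BAC 2. Only few orders are possible for 3 libraries, and the share of all tested genes with this order was not counted. The part of cerebellar content in the level of Slc6a5 was not tested. In contrast, DNP 1 held the most Slc6a5 of all 9 libraries with 1462 counts of Cbln3, fewer than CON 2 and CON 3.

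**Figure D3:**
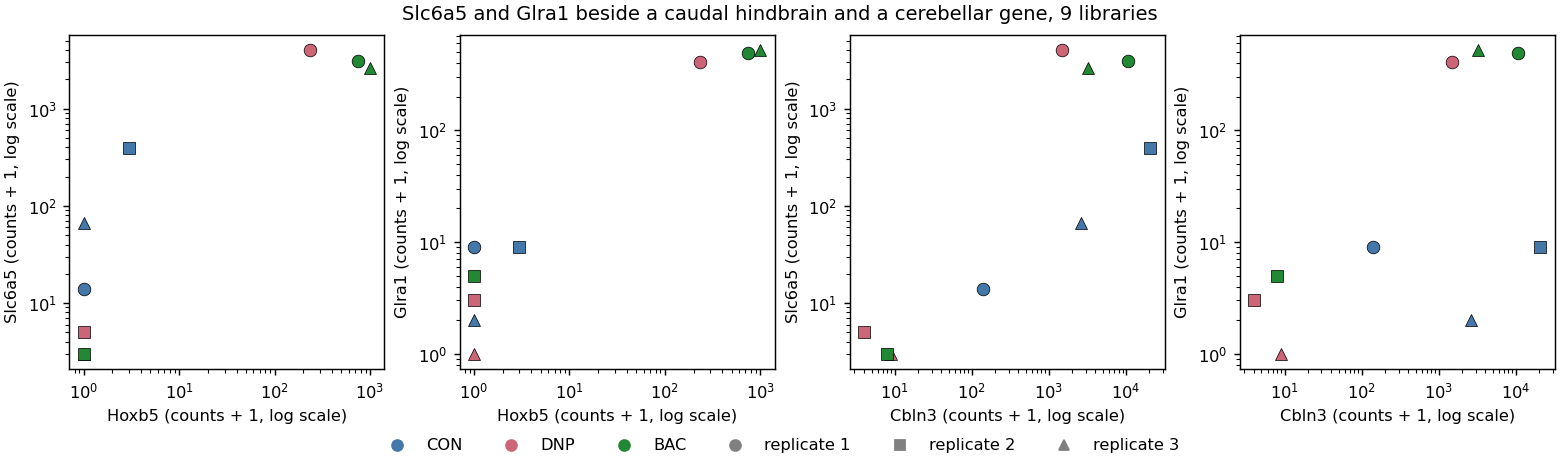
Counts of Slc6a5 and Glra1 (counts + 1, log scale) against counts of Hoxb5, left pair, and of Cbln3, right pair (counts + 1, log scale), with 1 point per library, the group as color and the replicate number as symbol. DNP 1, BAC 1 and BAC 3 lie apart at the upper right in the Hoxb5 panels, and Slc6a5 of the other libraries is highest in CON 2, which has the most Cbln3.

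The start of Slc6a5 holds letters of the kind that Hox proteins bind together with PBX proteins, and this stretch at the first of its 2 RefSeq starts is shown because Slc6a5 was high in the 3 libraries with Hox RNA. It lies at chr7:49910195-49910224 of GRCm38.p6 (RefSeq), plus strand, 5′ to 3′, with the letters TGATTTAT in capitals, which begin 93 bases before that start:
Slc6a5: caaaggggtaaTGATTTATcaaacgtgtat
Of 32851 promoter windows, 0.977% hold TGATTTAT on either strand. The window at the other start of Slc6a5 does not hold it, and the GENCODE annotation begins the gene upstream, at 49910146, so the letters lie within the annotated gene. The windows of Glra2, Glra3, Glrb, Slc6a9 and Gphn do not hold it, and Glra1 had no window in the table, so 6 of 7 genes were matched. Other motifs were searched in the same windows, and neither window of Slc6a5 held any of them. The rarest of these, held by 5.29% of all promoter windows, was absent from every window of the 6 matched genes. The match in Slc6a5 is thus the hit of a wider search. It describes letters only, and whether a Hox protein binds there was not tested.

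Slc6a9 encodes GlyT1 and was expressed in every library, with less contrast than Slc6a5. It measured 54.7, 106 and 52.7 CPM in CON, 197, 49.4 and 62.3 CPM in DNP, and 151, 49.8 and 173 CPM in BAC. The 3 Hoxb5 libraries were the highest, by 1.42 times over CON 2, and CON 2 stood above the remaining 5. Per length, Slc6a5 exceeded Slc6a9 in the 3 Hoxb5 libraries, at 1.73, 1.74 and 1.12 times in DNP 1, BAC 1 and BAC 3. Elsewhere it was 0.00249 to 0.315 times the level of Slc6a9, with the highest ratio in CON 2. Slc6a9 (chromosome 4, 117834506 to 117875198, plus strand) shares 1429 exonic bases with Ccdc24, 511 with Gm17114 and 46 with B4galt2 on the opposite strand. The libraries do not keep the strand, so reads in these bases cannot be told apart.

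Gphn encodes gephyrin, which also completes the molybdenum cofactor in all tissues, and it was the steadiest of the 7 genes. Its levels were 62.3, 69.4 and 58.5 CPM in CON, 56.6, 56.3 and 53.8 CPM in DNP, and 68.0, 53.0 and 58.8 CPM in BAC. All 3 DNP libraries lay below all 3 CON libraries, the BAC libraries overlapped with both, and the Hoxb5 libraries did not stand apart. CON averaged 63.4 ± 5.50 CPM, DNP 55.6 ± 1.54 CPM and BAC 59.9 ± 7.55 CPM (SD, n = 3). Gphn shares 147 exonic bases with Gm48226 on the opposite strand, which had at most 184 counts.

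The 7 genes differed in their spread over the 9 libraries. The SD of log2 CPM was 4.55 for Slc6a5 and 3.88 for Glra1, larger than in 99.9% and 99.8% of the 18501 genes tested. For Glra3, Slc6a9 and Glra2 it was 1.00, 0.84 and 0.77, and for Glrb 0.27. For Gphn it was 0.14, and 5.12% of tested genes varied less. Across the libraries, 5 of the 7 genes (Glra1, Glra3, Glrb, Slc6a5 and Slc6a9) were higher in each Hoxb5 library than in each other library, while 9.1% of all tested genes were, and no member was lower, against 7.8% of all genes. For Glrb the nearest libraries differed by only 1.06 times. Of all tested genes, 26 (0.141%) had a gap of more than 10 times, among them Glra1, and 138 (0.746%) a gap of more than 2 times, among them also Slc6a5. Other tissue content moved with the same libraries: the 5 oligodendrocyte markers summed to 5205 to 6970 CPM in the 3 and to 1605 to 4895 CPM in the 6, and their part in these levels was not tested.

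The first question of the design was whether diabetes with neuropathic pain changed these genes, by comparing DNP with CON. Of the 7, 6 had a higher and 1, Gphn, a lower fitted level in DNP, while 51.4% of all genes were higher. Their median log2 difference was 0.48, beside 0.01 over all genes. None of the 7 passed the threshold of 0.05 on the adjusted p of edgeR's quasi-likelihood test, and none had an unadjusted p under 0.05. DESeq2 called none of them either, although Glra1 had an unadjusted p of 0.0394 there (adjusted p = 0.326), and in edgeR its unadjusted p was 0.0484 without DNP 2 and 0.0402 without DNP 3. Over all 18501 genes 0.0% passed the adjusted threshold and 11.2% had an unadjusted p under 0.05, and DESeq2 called 2.03%. Glra1 was 4.62 higher on the log2 scale (SE 2.31, adjusted p = 0.488) and Slc6a5 3.10 higher (SE 2.53, adjusted p = 0.685), both carried by DNP 1 alone. Without DNP 1 the differences were -2.40 and -5.74, so that the direction of both turned. For Gphn, whose groups did not overlap, as in 18.2% of all genes, the log2 difference was -0.19 (SE 0.13, 95% interval -0.50 to 0.12, adjusted p = 0.631). The remaining differences were 0.48 for Glra2, 0.28 for Glra3, 0.26 for Glrb and 0.53 for Slc6a9, with SE of 0.23 to 0.66 and adjusted p of 0.712 to 0.917. Without DNP 1 the direction of Glra3 and Slc6a9 turned as well, to -0.36 and -0.35.

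The second question was whether baclofen changed them in diabetic mice, by comparing BAC with DNP. Again 0 of 7 passed the adjusted threshold or had an unadjusted p under 0.05, against 0.0% and 2.37% of all genes. DESeq2 called 0 of 7 (0.0379% of all genes), and no member separated the groups without overlap (6.79% of all genes). The log2 differences were 1.21 for Glra1, 0.23 for Glra2, 0.77 for Glra3, -0.11 for Glrb, 0.43 for Slc6a5, 0.28 for Slc6a9 and 0.11 for Gphn, each with an adjusted p of 0.998. Precision differed widely between genes: the 95% interval ran from -4.87 to 5.72 for Slc6a5 and from -0.20 to 0.42 for Gphn. For Slc6a5 and Glra1 the intervals span large differences in either direction, while for Gphn the interval leaves out a log2 change beyond 0.42. DNP held 1 Hoxb5 library and BAC 2, and single libraries decided the differences of Glra1 and Slc6a5. Without DNP 1 they were 8.23 for Glra1 and 9.27 for Slc6a5, both with an adjusted p of 0.665 and an unadjusted p of 0.00704 and 0.0181 in edgeR, while Slc6a5 was -0.22 without BAC 1, -0.15 without DNP 2 and -0.16 without DNP 3.

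BAC was also compared with CON, which shares the control mice with the first comparison. Glra1 was 5.83 higher on the log2 scale (SE 2.38, 95% interval 0.39 to 11.27), with an unadjusted p of 0.0383 and an adjusted p of 0.634 in edgeR, and was the only 1 of 7 with an unadjusted p under 0.05, as in 7.76% of all genes (0.0% passed the adjusted threshold). It was high in 2 of 3 BAC libraries, those with Hoxb5, and BAC 2 had 4 counts. The log2 differences of the others were 0.71 for Glra2, 1.05 for Glra3, 0.14 for Glrb, 3.52 for Slc6a5, 0.81 for Slc6a9 and -0.08 for Gphn, with adjusted p of 0.703 to 0.895 in edgeR. DESeq2 called 0 of 7 (0.569% of all genes), and no member separated BAC from CON without overlap (13.4% of all genes).

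Fitting the groups with Hoxb5 as a covariate, or without DNP 1, BAC 1 and BAC 3, turned the direction of several of these differences. With Hoxb5 in the edgeR model, the log2 difference of Slc6a5 between DNP and CON was -3.88 (unadjusted p = 0.000778, adjusted p = 0.114). Without the 3 Hoxb5 libraries the difference was -5.76 (unadjusted p = 0.0240, adjusted p = 0.461), and the DNP 2 and DNP 3 libraries had 4 and 2 counts where CON had 13 to 397. The same libraries differ in cerebellar RNA, and with both Hoxb5 and Cbln3 in the model the difference was 0.11 (adjusted p = 0.992). These covariates were chosen after seeing the data and leave few degrees of freedom, so the part of cerebellar RNA was not tested by this fit. With Hoxb5 in the model, Glra1 differed by -0.24 in DNP versus CON and by -0.95 in BAC versus CON, and Gphn by -0.23 and -0.20. No member passed the adjusted threshold in any of these fits.

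**Figure D4:**
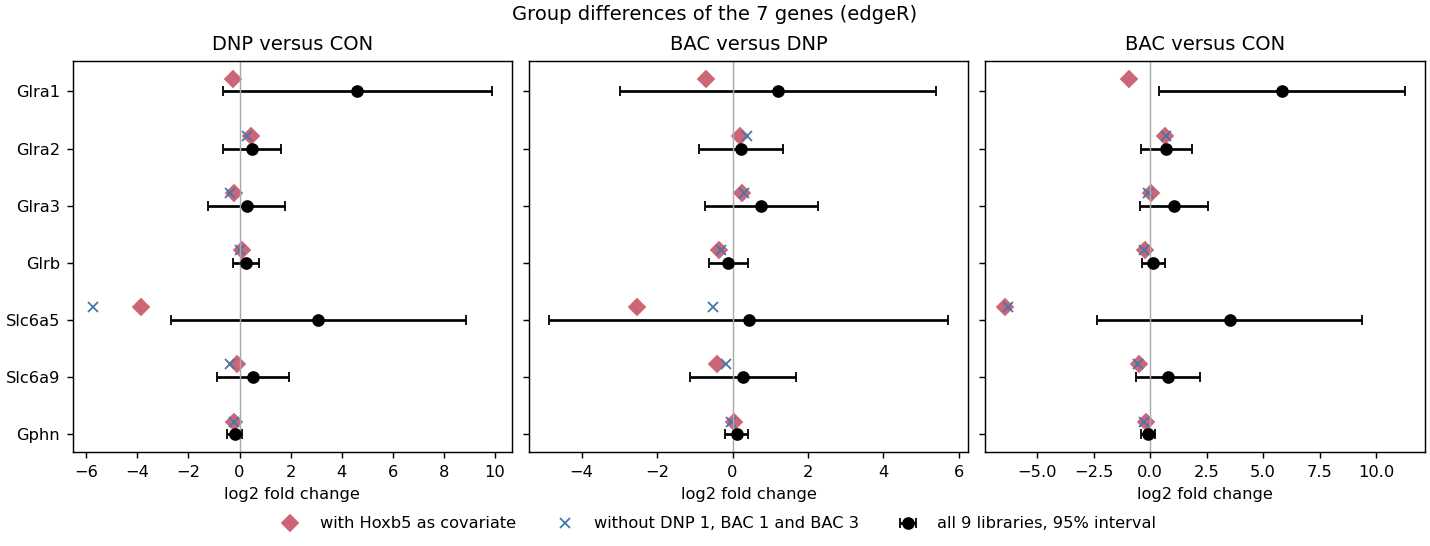
Log2 fold changes of the 7 genes in the 3 comparisons from edgeR, with 95% intervals over all 9 libraries (black), with Hoxb5 as a covariate (diamonds) and without DNP 1, BAC 1 and BAC 3 (crosses, Glra1 had too few counts there to be fitted). Slc6a5 in DNP versus CON moves from 3.10 to -3.88 and -5.76, and the interval of Gphn stays within -0.50 and 0.42 over the 3 panels.

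The genes whose pattern over the 9 libraries was most like that of each member, by Pearson's r of log2 CPM among 16782 genes with a mean of at least 1 CPM, are given as a description, since the libraries share their tissue content. For Glra1 they were Tmem248 (r = 0.982), Rlim (0.975) and Scd2 (0.973), and Hoxb5 ranked 27 with 0.955. For Slc6a5 they were Lingo4 (0.994), Lrrc75b (0.986) and Hspa4l (0.985), and for Slc6a9 Ubap1l (0.993), Slco3a1 (0.993) and Rhpn2 (0.991). Hoxb5 ranked 347 for Slc6a5 and 166 for Slc6a9. The pattern of Glra2 was close to Timp2 (0.972) and Magee2 (0.968), that of Glra3 to Man2b2 (0.978), F2rl2 (0.965) and Itfg1 (0.965), and the pair had an r of 0.817 with each other. Glrb was nearest to Gm2446 (0.969), Fzd9 (0.965) and Cct8 (0.963), and Gphn to Ercc8 (0.974), Pcdhb16 (0.967) and Mpp4 (0.956). Hoxb5 ranked 897 for Glrb, 1088 for Glra3, 5077 for Gphn and 5558 for Glra2.

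Beyond the 7 genes, 31 further genes of glycine supply and gephyrin were listed, of which 30 were tested. In DNP versus CON 0 of 30 passed the adjusted threshold in edgeR, while 5 were higher and 1 lower at an unadjusted p under 0.05, against 5.71% and 5.46% of all genes. Their median log2 difference was 0.12, and that of all genes 0.01. In BAC versus DNP 2 were higher and 0 lower at that level (1.37% and 1.0% of all genes), and in BAC versus CON 5 were higher and 1 lower (4.46% and 3.3%). The 2 in BAC versus DNP were Slc6a20a, by 0.65, and Suox, by 0.45 on the log2 scale (adjusted p = 0.998 for both in edgeR). Slc6a20a was also the 1 that was lower in DNP versus CON.

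The 9 genes of glycine synthesis and breakdown were split in DNP versus CON, with 4 at a higher and 5 at a lower fitted level and a median log2 difference of -0.017, beside 0.01 over all genes tested. At an unadjusted p under 0.05, 3 of them were higher and 0 lower, while Gldc, Shmt1 and Shmt2 differed by -0.52, -0.44 and -0.35 (adjusted p = 0.780, 0.620 and 0.654 in edgeR). Gldc and Shmt1 were lower in each Hoxb5 library than in each other library, as were 7.8% of all genes. Gldc measured 11.8, 46.4 and 27.9 CPM in DNP 1, DNP 2 and DNP 3. Slc38a5, a carrier of glutamine, serine and glycine, measured 2.19, 2.35 and 2.46 CPM in CON, 7.03, 5.80 and 4.07 CPM in DNP, and 3.34, 6.01 and 4.35 CPM in BAC. Each diabetic library was above each CON library, with a log2 difference of 1.27 in DNP versus CON (SE 0.30, adjusted p = 0.294 in edgeR and 0.0270 in DESeq2). Psat1, an enzyme of serine synthesis, measured 92.1, 96.2 and 86.1 CPM in CON, 191, 117 and 142 CPM in DNP, and 161, 134 and 187 CPM in BAC. It was 0.71 higher in DNP on the log2 scale (SE 0.20, adjusted p = 0.327), without overlap, and it was also higher in the Hoxb5 libraries than in the others. Phgdh, which begins the same pathway, differed by 0.49 (SE 0.15, adjusted p = 0.352), and Gcsh, a subunit of the glycine cleavage system, by 0.49 (SE 0.19, adjusted p = 0.396). Like Psat1, Gcsh was higher in the Hoxb5 libraries than in the others. Of the other carriers, Slc6a20a differed by -0.64 and Slc32a1, the vesicular transporter of GABA and glycine, by 0.27 (adjusted p = 0.383 and 0.751 in edgeR).

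Among 12 partners of gephyrin, Gabarap, which binds GABA-A receptors and gephyrin, measured 80.1 to 82.4 CPM in CON, 105 to 117 CPM in DNP and 92.5 to 114 CPM in BAC. Its log2 difference in DNP versus CON was 0.45 (SE 0.12, adjusted p = 0.325 in edgeR and 0.0389 in DESeq2), without overlap. Nlgn2, an adhesion protein of inhibitory synapses, differed by -0.33 and Pfn1, an actin-binding protein, by 0.28, and neither had an unadjusted p under 0.05. Nlgn2 was lower in each Hoxb5 library than in each other library. The 4 genes of the molybdenum cofactor pathway had no unadjusted p under 0.05 in DNP versus CON, with log2 differences of -0.18 for Mocs1, -0.15 for Suox and 0.15 for Mocs2. The 5 erythroid markers, all detected in every library, summed to 188 to 218 CPM in CON, 477 to 683 CPM in DNP and 471 to 735 CPM in BAC, so they moved with the same groups as Slc38a5, Psat1, Phgdh, Gcsh and Gabarap, and their part in these differences was not tested. Without DNP 1, BAC 1 and BAC 3, 4 of the 30 were higher and 1 lower in DNP versus CON at an unadjusted p under 0.05, and Slc38a5, Psat1, Phgdh and Gabarap then differed by 1.07, 0.49, 0.48 and 0.40. With Hoxb5 alone as a covariate the counts were 6 and 1. With Hoxb5 and Cbln3 as covariates, chosen after seeing the data, they were 0 and 0, and Slc38a5 differed by 1.23. That model leaves few degrees of freedom, and the shares of all genes under these settings are not given here.

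**Figure D5:**
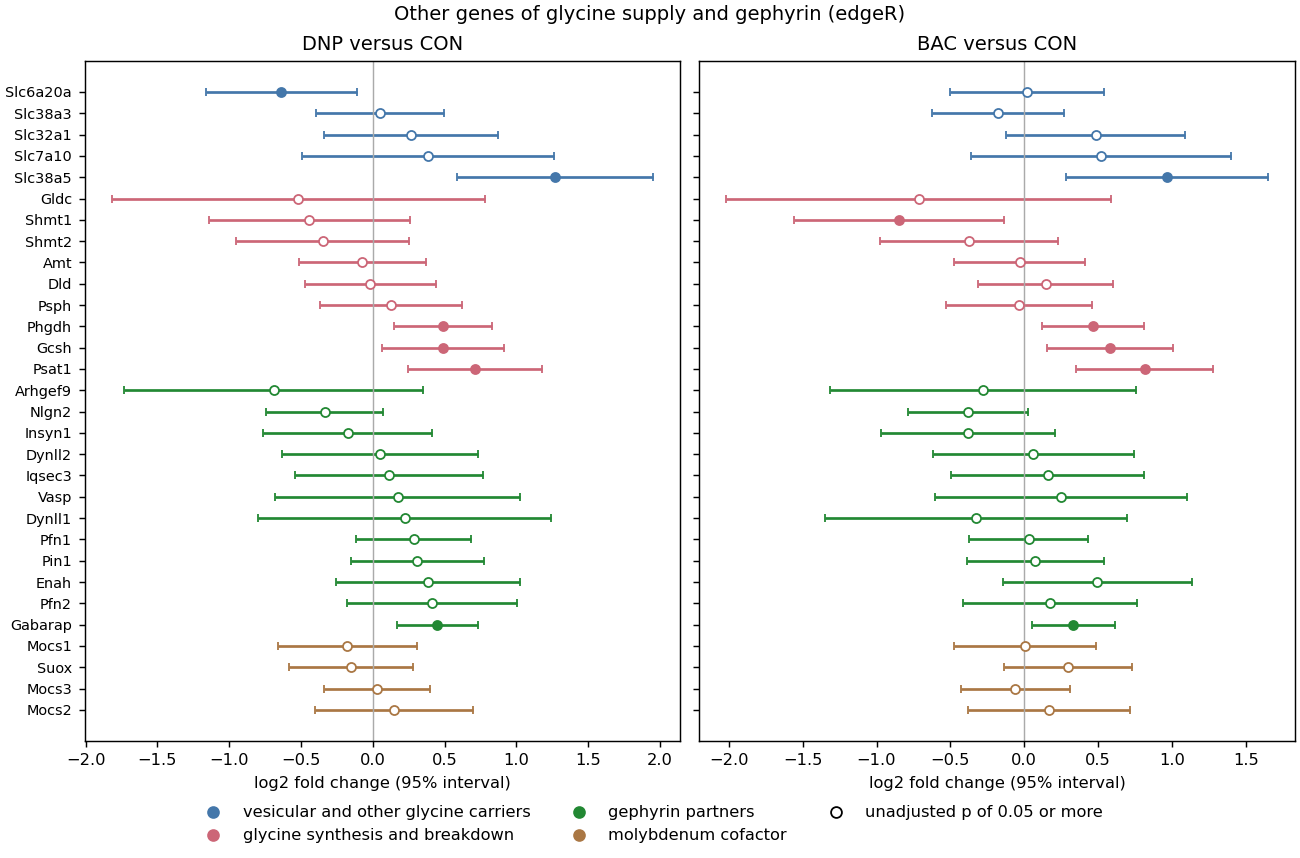
Log2 fold changes with 95% intervals of the 30 tested genes of glycine supply and gephyrin in DNP versus CON and in BAC versus CON (edgeR, 9 libraries, both against the same CON mice), colored by gene list, with filled points for an unadjusted p under 0.05. Slc38a5, Psat1, Phgdh, Gcsh and Gabarap are filled and above 0 in both panels.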

How the data were processed

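Whole-brain poly(A) RNA of 9 mice was sequenced as paired-end libraries that do not keep the strand. Per the submitters' processing notes, FastQC 0.11.9, fastp, Bowtie2 2.3.4.1, HISAT2 2.1.0, StringTie 1.3.3b and GRCm38 were used. The authors deposited raw counts per gene, without normalization, and FPKM values, which carry no TMM factor. The treatment of reads with several matches is not given in the sources used here.

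Counts were tested in R 4.3.3 with edgeR 4.0.16 (TMM, filterByExpr with a minimum count of 10, quasi-likelihood test, 9 libraries in 1 model, Benjamini-Hochberg adjustment, threshold 0.05), which kept 18501 of 53465 genes. SE is the size of the log2 fold change divided by the square root of F. Levels are TMM-normalized CPM, and FPKM serves where genes are compared. The biological coefficient of variation was 36.5%. Depth was 13107382 to 16008129 counts, and replicates of a group differed beyond sampling noise (chi-square per degree of freedom 14.3 to 110). The ratio of Glra1 to Glra2 was planned without a pseudocount but, as Glra1 is at 0 in DNP 3, is given with FPKM + 0.1 and exact permutation tests. Alternatives used DESeq2 1.42.0, limma 3.58.1, other scalings and filters, a replicate block, covariates and libraries left out. The fit was tested on simulated counts.

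Genes named are the 7 members, Hoxb5, up to 3 genes per pathway list with the smallest p in DNP versus CON, the 3 genes most like each member (mean CPM of at least 1) and markers beside a result. Among the genes chosen by likeness, 1 is not reported here. Gene positions are from GENCODE on GRCm38, and sequences from RefSeq on GRCm38.p6. The members and lists were chosen with earlier results of these data known.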

Additional observations from a re-analysis of the deposited data

How the results depend on the processing

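No member passed the adjusted threshold in any alternative or comparison, and the lowest adjusted p, over all of them, was 0.114 (Slc6a5 in DNP versus CON with Hoxb5 as a covariate). Of the fits that leave out no single replicate, 207 member differences kept their direction and 34 reversed, mostly with covariates or without the 3 Hoxb5 libraries, and the cause was not tested. Counts of called genes were 0 in edgeR and limma over all libraries, and DESeq2 called 346 genes for DNP versus CON, 7 for BAC versus DNP and 101 for BAC versus CON, none of them members.

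With Hoxb5 as a covariate the reversed log2 differences were, in DNP versus CON, -0.24 for Glra1, -0.22 for Glra3, -3.88 for Slc6a5 and -0.090 for Slc6a9. In BAC versus DNP they were -0.71 for Glra1, -2.53 for Slc6a5 and -0.40 for Slc6a9, and in BAC versus CON -0.95 for Glra1, -0.24 for Glrb, -6.41 for Slc6a5 and -0.49 for Slc6a9. With Hoxb5 and Cbln3 as covariates, chosen after seeing the data, they were -2.09 for Glra1, -1.77 for Glra2 and -2.32 for Glra3 in DNP versus CON, and -0.71 for Glra1, -2.54 for Slc6a5 and -0.42 for Slc6a9 in BAC versus DNP. In BAC versus CON they were -2.80 for Glra1, -1.50 for Glra2, -2.0 for Glra3, -0.26 for Glrb, -2.43 for Slc6a5 and -0.011 for Slc6a9. This model leaves few degrees of freedom.

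Without DNP 1, BAC 1 and BAC 3 the reversed differences were -0.37 for Glra3, -5.76 for Slc6a5 and -0.36 for Slc6a9 in DNP versus CON, and -0.51 for Slc6a5, -0.16 for Slc6a9 and -0.051 for Gphn in BAC versus DNP. In BAC versus CON they were -0.073 for Glra3, -0.28 for Glrb, -6.28 for Slc6a5 and -0.53 for Slc6a9. BAC then has 1 library, which is assumed to vary like the other groups.

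Leaving out each library in turn, genes called ranged from 0 to 1 in DNP versus CON and in BAC versus CON (1 without CON 2 or without CON 3) and from 0 to 0 in BAC versus DNP. In DNP versus CON the difference ranged from -2.40 to 5.20 for Glra1, from -0.36 to 0.83 for Glra3, from -5.74 to 5.14 for Slc6a5 and from -0.35 to 0.93 for Slc6a9. The lowest of these came without DNP 1. In BAC versus DNP it ranged, those fits without 3 libraries included, from -0.30 to 0.11 for Glrb, from -0.051 to 0.19 for Gphn, from 0.62 to 8.23 for Glra1, from -0.51 to 9.27 for Slc6a5 and from -0.16 to 1.16 for Slc6a9. In BAC versus CON the highest values were 1.60 for Glra3, 0.31 for Glrb, 5.58 for Slc6a5 and 1.22 for Slc6a9, the lowest being those without the 3 libraries. The log2 ratio of Glra1 to Glra2 ranged from -1.35 to 1.68 in DNP versus CON, from 1.00 to 4.14 in BAC versus DNP and from 1.56 to 4.70 in BAC versus CON. With counts + 0.5, chosen after seeing the data, the first was -0.014.

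With the replicate number as a block, Slc6a5 in DNP versus CON was -1.38 and no other member reversed. The block called 0 genes in each comparison. Same-numbered libraries correlated from -0.55 to 0.55 in their deviations from the group means. As the libraries did not hold the same brain regions, these values cannot show whether the numbers pair the mice. Glra1 and Slc6a5 are not kept where at least 1 CPM in 6 libraries is asked, and the ratio without a pseudocount was not run. At these depths 0 counts of Glra1 allow up to 0.199 CPM in DNP 3.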
